A study of Mus musculus with 18 samples.

Results

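Lung gene expression of vehicle-exposed male (XY) and female (XX) mouse fetuses was compared at gestational day 17 (GD17), over autosomal genes only. The 3 XY pools (17 m) and the 3 XX pools (17 f) were of the BALB/c strain, and every array held the RNA of 3 fetuses of 1 sex taken from separate litters. Their dams had received the vehicle alone, saline with gelatin and DMSO, under the skin once a day from GD10 until the day before harvest. The series of 18 arrays also holds the GD18 counterparts (18 m and 18 f) and males whose dams received the androgen receptor blocker flutamide at 1 mg per day (17 flut and 18 flut). Each gene was read in 1 probe set, a group of short probes for 1 transcript, taken as the one with the highest mean over the 18 arrays. This gave 17529 autosomal genes of 18161 genes with a single symbol, from 45101 probe sets. Of these, 172 were set aside because they belong to exocrine pancreas, islet, stomach, squamous epithelium or blood lists, or moved with 3 of the pools, and 17357 are described. Values are log2 of the deposited intensity, differences are XY minus XX in log2 units, and a gene is called where the limma adjusted p is under 0.05.

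At GD17 the mouse lung passes from the canalicular to the saccular stage, when airspaces widen, the mesenchyme between them thins and type II cells begin to make surfactant. Testosterone from the fetal testis reaches the lung through the blood and acts through the androgen receptor, a transcription factor present mainly in mesenchymal cells at this age. Male fetuses start surfactant production later than females, and androgens are known to delay it. The comparison asks which genes differ by sex as this production begins. Genes of the X and Y chromosomes differ between the sexes through gene dose, so autosomal genes were taken apart from them. In pooled tissue, fewer cells of a type and less RNA per cell cannot be told apart.

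The 6 pools did not hold lung alone in equal measure. The mean of the exocrine pancreas genes, centred on the 6 pools, was 1.41 and 1.34 in XX pools 2 and 3 and 0.96 in XY pool 3, against -1.15 in XX pool 1 and -1.18 and -1.39 in XY pools 1 and 2. Carboxypeptidase Cpa1, made by the acinar cells of the pancreas, was at 11.99, 11.94 and 11.92 in the same 3 pools and at 7.27, 7.59 and 7.26 in the others. The same 3 pools were above the other 3 in the squamous, blood, liver and skeletal muscle lists, with the squamous mean at 0.75 and 0.74 in XX pools 2 and 3 and at 0.13 or lower in every other pool. Of these pools 2 are XX and 1 is XY. The median XY minus XX difference was -1.15 in the exocrine pancreas list and -0.35 in the squamous list. All 8 genes called among those set aside were lower in XY: Cuzd1, Krt6b, 2210407C18Rik, Cited4, Hbb-bh1, Pnliprp2, Crct1 and Klk10. The coefficient of an indicator of the 3 pools was called in Krt6b, 2210407C18Rik, Cited4 and Pnliprp2. It was not called in Cuzd1, Crct1, Klk10 and Hbb-bh1. Hbb-bh1 was at 6.04, 5.77 and 5.99 in XY pools 1 to 3 and at 6.52, 6.61 and 6.47 in XX pools 1 to 3. Of 4 RNA controls on the array, 2 separated the sexes. The difference between the 5′ and 3′ probe sets of beta-actin was -0.41, -0.38 and -0.38 in XY and -0.48, -0.49 and -0.46 in XX, and the 5′ probe set of 18S rRNA was at 10.4, 12.2 and 12.8 in XY and 13.1, 13.4 and 13.4 in XX. The sexes did not overlap in either, but did in the 5′ minus 3′ differences of Gapdh (0.17 to 0.24 in XY, 0.19 to 0.21 in XX) and of the transferrin receptor (-2.39 to -2.05 in XY, -2.40 to -2.34 in XX). The part of these controls in the results below was not tested.

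**Figure D1:**
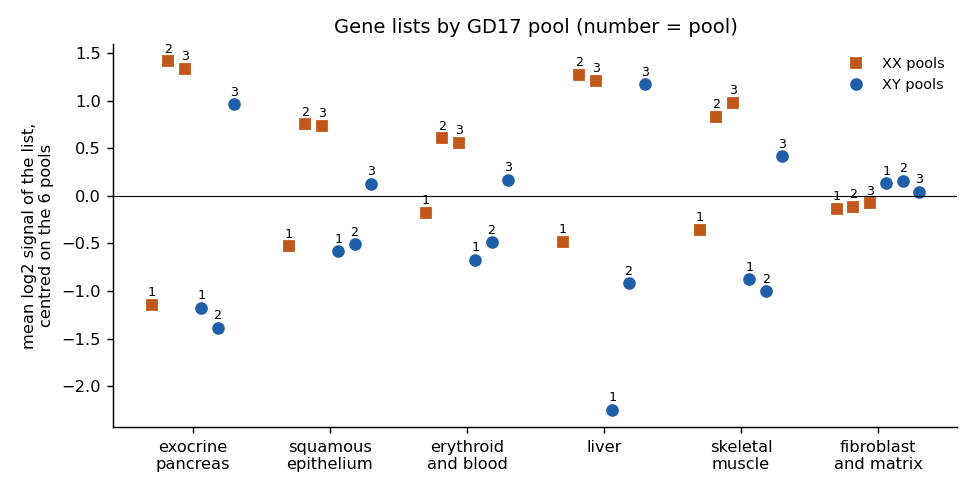
Mean log2 signal of 6 gene lists in each GD17 pool, centred on the mean of the 6 pools; squares are XX pools, circles are XY pools, and the number beside each point is the pool. XX pools 2 and 3 and XY pool 3 are above the others for exocrine pancreas, while for fibroblast and matrix genes the 3 XY pools are above the 3 XX pools.

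Between the sexes, 281 of the 17357 autosomal genes (1.62%) were called, and 2362 (13.6%) had an unadjusted p under 0.05. Over all 45037 probe sets tested, those of sex chromosomes and those without a gene included, 1845 (4.1%) were called, 1623 of them higher (3.6%) and 222 lower (0.493%) in XY. Of the 281 genes, 160 were higher in XY (0.922% of all genes described) and 121 were lower (0.697%), so that 56.9% of the calls were higher in XY. This share was 37.9% (136 higher and 223 lower) when each array was centred on its median. It was 34.9% without XX pool 1. It was 80.1% with the mean of all probe sets of a gene and 83.3% with only the 6 vehicle arrays of GD17. With p-values adjusted over the autosomal genes alone it was 85.0%. The 3 XY and 3 XX pools did not overlap in 271 of the 281, and did not overlap in 20.9% of all genes described (5.63% higher and 15.2% lower in XY). Differences were small. The median was 0.46 for genes called higher, with the largest at 1.04, and -0.31 for those called lower. The median of all genes described was -0.05, with 34.7% above 0. The genes called higher lay more often at strong signal, with 56 in the top 20% of mean signal and 3 in the bottom 20%, against 16 and 13 of those called lower. Genes called higher were also more often called in other probe sets. Of the genes called higher, 126 had 346 further probe sets, of which 78 were called higher, 0 lower, and 84.7% were above 0. Of the genes called lower, 52 had 80 further probe sets, of which 1 was called lower, 0 higher, and 26.2% were above 0. The lower calls also varied more with single pools: they numbered 309 without XX pool 1, 31 without XX pool 2, 22 without XX pool 3, 62 without XY pool 1, 58 without XY pool 2 and 141 without XY pool 3. For the higher calls the counts in that order were 166, 89, 93, 101, 91 and 224.

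**Figure D2:**
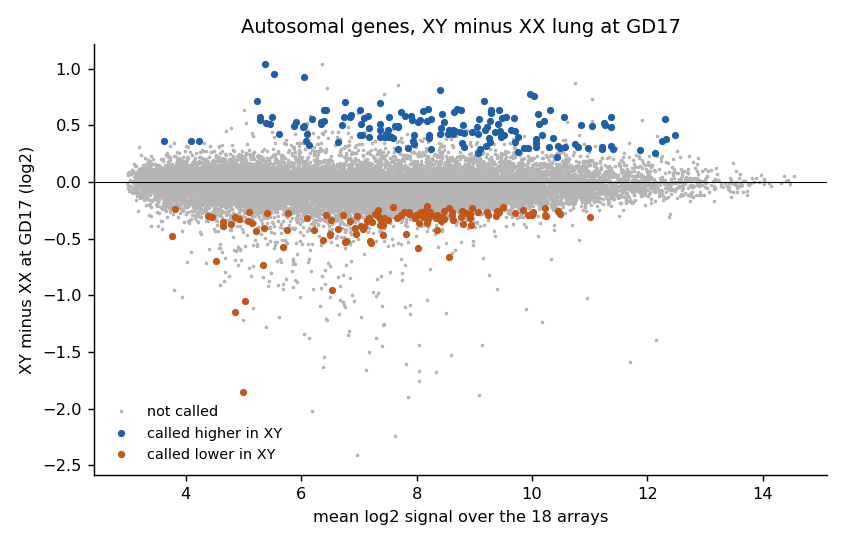
XY minus XX difference at GD17 (log2, y axis) against mean log2 signal over the 18 arrays (x axis) for the 17357 autosomal genes; blue and orange points are the 160 genes called higher and the 121 called lower in XY. Called genes lie between -1.85 and 1.04, and most calls higher in XY are at middle and strong signal.

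The genes with the largest differences toward XY were of mixed kinds. The transcribed pseudogene Gm16386 had log2 signals of 5.70, 6.06 and 6.03 in XY pools 1 to 3 and 5.13, 4.69 and 4.84 in XX pools 1 to 3. Its groups were well apart, and its difference was 1.04 ± 0.16 (standard error, n = 3 and 3 pools; limma adjusted p = 0.00117). Of the 2 probe sets of Gm16386, 1 was called, and their median difference was 0.58. The uncharacterised transcripts B230216N24Rik, A330076H08Rik, 2310067E19Rik and 5031426D15Rik differed by 0.95, 0.92, 0.76 and 0.70, and Gm4924 by 0.71. B230216N24Rik was called in 1 of 2 probe sets, with a median of 0.61. Hmbox1, a homeobox protein that binds telomeric DNA, was at 8.56, 8.66 and 8.29 in XY and at 7.80, 7.65 and 7.64 in XX. Every XY pool was above every XX pool and the difference was 0.81 ± 0.10 (limma adjusted p = 0.000335), but 1 of its 3 probe sets was called. Usp8, a deubiquitinase of endosomes, was at 9.42, 9.42 and 9.05 against 8.65, 8.49 and 8.62. Its difference was 0.71 ± 0.11 (limma adjusted p = 0.00105), and 1 of its 2 probe sets was called, with a median of 0.43. Scmh1, a Polycomb protein, differed by 0.65 and Taf15, an RNA-binding partner of the general transcription factor TFIID, by 0.64, each called in 2 probe sets. Slc8a1, the sodium-calcium exchanger of the plasma membrane, differed by 0.70 and was also called in 2.

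Calls in many probe sets of 1 gene marked a further group. Ttc14, a tetratricopeptide repeat protein, was at 10.38, 10.35 and 10.22 in XY and 9.74, 9.36 and 9.52 in XX, a difference of 0.77 ± 0.12 (limma adjusted p = 0.00132), and 6 of its 10 probe sets were called higher. Lpp, a LIM protein of focal adhesions in smooth muscle and fibroblasts, was at 11.16, 11.43 and 11.22 against 10.69, 10.68 and 10.72. Its difference was 0.57, and 6 of 8 probe sets were called. Nbeal1 differed by 0.50 with all 4 probe sets called. Called probe sets numbered 4 each for the kinase gene Taok1 (0.50), Phip (0.51), whose product binds the insulin receptor substrate IRS1, Mycbp2, a large ubiquitin ligase (0.39), and Zbtb20, a zinc finger repressor (0.53). Tut4, which adds uridines to the let-7 precursor, differed by 0.30 with 3 of 5 called. The repeated probe sets of a gene share its RNA and are no further replicates.

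**Figure D3:**
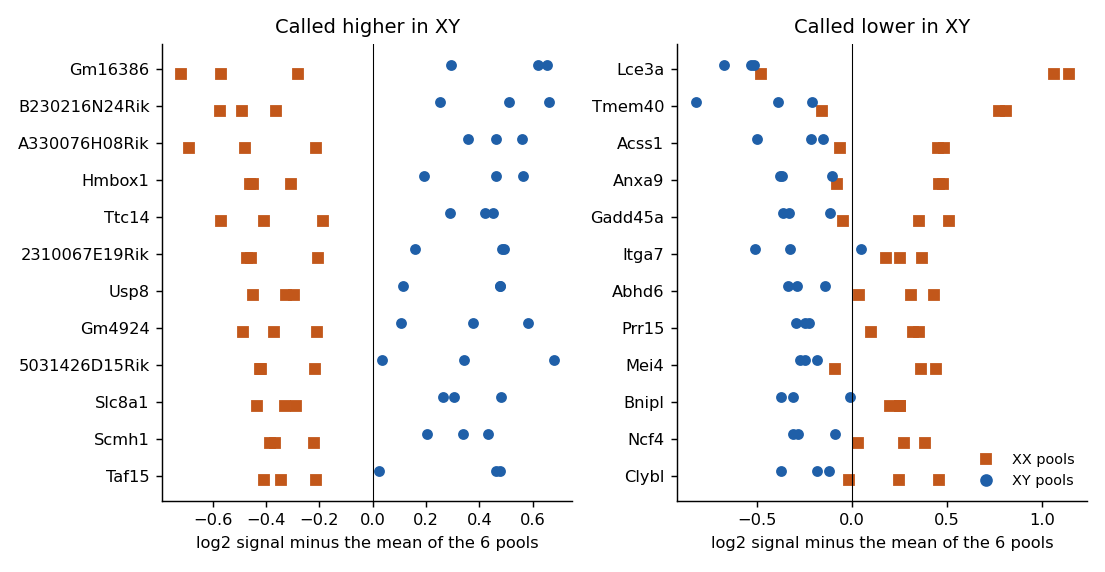
Log2 signal of each GD17 pool minus the mean of the 6 pools, for the 12 largest differences in each direction among autosomal genes called without overlap between the sexes; squares are XX pools and circles are XY pools. In the right panel Lce3a, Tmem40 and Anxa9 have XX pool 1 next to the XY pools and XX pools 2 and 3 far above.

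Extracellular matrix genes lay mostly above 0 in XY, and those called were all higher. In the list of fibroblast and matrix genes, 6 of 33 measured were called higher and 0 lower, 31 were above 0, and the median was 0.22, against 0.922% called higher, 34.7% above 0 and a median of -0.05 over all genes. In 20 of the 33 the XY pools were all above the XX pools, against 5.63% of all genes described. With the indicator of the 3 pools high in pancreas genes in the model 2 were called, and with these pools left out 0, with 32 and 31 above 0 and medians of 0.22 and 0.26. Fbln5, a fibulin needed for elastic fibre assembly, was at 9.98, 10.19 and 9.79 in XY and 9.56, 9.56 and 9.61 in XX. The groups did not overlap, and the difference was 0.41 ± 0.11 (limma adjusted p = 0.0462), with 0.19 as the mean of its 2 probe sets. Fbln5 and Col1a1 each lost the call in 12 of 20 alternative settings. Eln, which encodes elastin itself, had the same difference of 0.41 and was not called (adjusted p = 0.0674). Col1a1, a chain of the main fibrillar collagen, was at 10.72, 10.60 and 10.64 against 10.24, 10.34 and 10.43, a difference of 0.32 ± 0.08. The other members called were Col5a1, Col6a1, Col6a3 and Postn, between 0.29 and 0.31. Genes outside the list and picked after their values were seen went the same way. Ogn, a small leucine-rich proteoglycan that binds collagen fibrils, was at 10.27, 10.46 and 10.25 in XY and 9.83, 9.78 and 9.76 in XX, a difference of 0.54 ± 0.07 (limma adjusted p = 0.000468). Its neighbour and relative Omd differed by 0.33, and Lamc1, the gamma chain of most laminins, by 0.31. Omd lost the call in 16 of 19 alternative settings and Lamc1 in 11 of 20. In the list of heparan sulfate and proteoglycan genes 0 of 20 measured were called, 9 were above 0 and the median was -0.01. At GD18 the median of the matrix list was -0.11.

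Splicing and chromatin genes were mostly above 0, with few calls. Over all genes described 0.922% were called higher, 34.7% were above 0 and the median was -0.05. Among SR and other splicing factors, 4 of 36 measured were called higher and 0 lower, with 24 above 0 and a median of 0.10, and without the 3 pools high in pancreas genes 1 was called. Rbm6, an RNA-binding regulator of splicing, was at 9.62, 9.41 and 9.48 in XY and 8.99, 8.89 and 9.02 in XX, a difference of 0.54 ± 0.06 (limma adjusted p = 0.000214). This was 1 of its 3 probe sets, and their mean differed by 0.16 (adjusted p = 0.144). The other members called were Luc7l2, Rbm25 and Rbm39, between 0.52 and 0.57. Luc7l2 was called in 3 of 8 probe sets, Rbm25 in 3 of 6 and Rbm39 in 6 of 12. Their medians over all probe sets were 0.26, 0.38 and 0.36, and every probe set was above 0. Of 45 chromatin regulators, 38 were above 0 and 2 were called higher: the cohesin loader Nipbl (0.39) and the chromatin remodeller Chd9 (0.33). Nipbl was called in 2 of 5 probe sets and Chd9 in 1 of 3. The call was lost in 9 of 20 alternative settings for Nipbl and in 11 for Chd9. Of 15 nuclear noncoding RNAs, Kcnq1ot1 and Rian were called higher. Rian, a maternally expressed RNA of the imprinted Dlk1-Dio3 domain that carries many snoRNAs, was at 9.54, 9.65 and 9.81 in XY and 9.02, 8.99 and 9.09 in XX. Its difference was 0.63 ± 0.10 (limma adjusted p = 0.00106), while Meg3 of the same domain had 0.22 and was not called. Of 41 cell cycle genes, the condensin subunit Smc4 (0.38) and the kinetochore scaffold Knl1 (0.40) were called higher, 0 were called lower, and the median was 0.01. Smc4 lost the call in 13 of 20 alternative settings and Knl1 in 9.

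A run of neighbouring zinc finger genes on chromosome 17 held many of the calls, and was singled out after its values were seen. Zfp genes encode DNA-binding proteins, most of them repressors with a KRAB domain that silence transposable elements, and many lie in clusters of near copies. Of 330 Zfp genes measured, 25 were called higher in XY (7.58%, against 0.922% of all genes described) and 1, Zfp428, was called lower, with a median of 0.00. On chromosome 17, 12 of 43 Zfp genes were called higher. In the order of the RefSeq table (GRCm38.p6), 21 measured genes lie from Zfp160 to Zfp40, 20 of them Zfp genes and the other Gm16386. Of these, 11 were called higher, 0 lower, 20 were above 0, and the median was 0.40. With the indicator of the 3 pools high in pancreas genes 8 were called, and with these pools left out 1, while 20 were above 0 in both. Probes for such near copies can bind each other's transcripts, so the 11 calls may not stand for 11 separate genes. Of the 25 Zfp genes called higher on all chromosomes, 1 was read by a probe set type that the array maker marks as shared between transcripts. Binding between near copies was not tested.

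Promoters of the run are shown for a pair of neighbours that differed on both days and for the first gene of the run, from RefSeq (GRCm38.p6), as 300 bases around the start of the gene, most of them before it. Capitals mark the longest stretch that the promoters of Zfp820 and Zfp995 share, of 17 bases, and in Zfp160 the androgen receptor half-site AGAACA, which there reads on the opposite strand. The regions are chr17:21845710-21846009 (minus strand) for Zfp820, chr17:21909877-21910176 (minus strand) for Zfp995 and chr17:21008691-21008990 (plus strand) for Zfp160.
Zfp820: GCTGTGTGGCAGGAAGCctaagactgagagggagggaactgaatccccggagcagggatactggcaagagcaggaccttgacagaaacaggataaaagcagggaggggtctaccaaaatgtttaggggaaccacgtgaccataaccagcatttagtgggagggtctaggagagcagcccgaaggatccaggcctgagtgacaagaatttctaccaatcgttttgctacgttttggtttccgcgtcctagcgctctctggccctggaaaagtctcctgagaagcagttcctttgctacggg
Zfp995: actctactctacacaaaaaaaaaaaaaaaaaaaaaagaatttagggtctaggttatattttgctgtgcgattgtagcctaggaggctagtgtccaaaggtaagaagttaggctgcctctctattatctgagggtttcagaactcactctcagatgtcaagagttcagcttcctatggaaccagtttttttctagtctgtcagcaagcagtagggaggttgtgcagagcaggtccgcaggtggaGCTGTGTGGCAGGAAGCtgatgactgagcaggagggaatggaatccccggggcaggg
Zfp160: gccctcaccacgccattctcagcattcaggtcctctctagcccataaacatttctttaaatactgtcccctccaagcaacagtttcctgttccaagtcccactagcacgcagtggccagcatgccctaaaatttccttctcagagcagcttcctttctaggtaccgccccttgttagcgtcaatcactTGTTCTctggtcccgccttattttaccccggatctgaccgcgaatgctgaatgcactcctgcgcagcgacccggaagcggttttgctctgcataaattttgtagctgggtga
The stretch of 17 bases was present on either strand in 3 of 32851 promoters of the table. Of these, 2 are the promoters of Zfp820 and Zfp995, from which the stretch was taken. The half-site AGAACA was present on either strand in 19% of all promoters, in 17.7% of 158 promoters of 125 genes called higher and in 10.1% of 129 promoters of 102 genes called lower. The full element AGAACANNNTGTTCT, which holds the half-site and its reverse complement, was in 3 of all promoters and in 0 of those of called genes. In the run on chromosome 17 the half-site was present in 5 of 20 promoters (25%). A match describes the letters of this window only.

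Zfp51 had log2 signals of 6.81, 6.85 and 6.85 in XY and 6.36, 6.32 and 6.21 in XX. Zfp948 was at 7.75, 7.65 and 7.39 against 7.05, 7.01 and 7.05. Zfp995 was at 5.66, 5.61 and 5.80 against 5.28, 5.07 and 4.99. In all 3 genes the XY pools were above the XX pools, by 0.54 ± 0.11, 0.56 ± 0.11 and 0.58 ± 0.11 (limma adjusted p = 0.00706, 0.00704 and 0.00542). Zfp160, Zfp760, Zfp820 and Zfp943 differed by 0.41, 0.41, 0.42 and 0.39, and Zfp53 by 0.40. In the 18 genes of the run before Gm16386, 17 were also above 0 at GD18, on other pools, and the median was 0.38 at GD17 and 0.42 at GD18. Of the 8 of these called at GD17, 6 were called higher at GD18: Zfp160 (0.41), Zfp51 (0.45), Zfp760 (0.56), Zfp820 (1.27), Zfp995 (0.83) and Zfp943 (0.49). Without XY pool 3 of GD18, which was high in liver genes, 5 of the 6 were called and Zfp51 was at 0.34 (adjusted p = 0.0611). The last 3 genes of the run, Gm16386, Zfp945 and Zfp40, were below 0 at GD18, at -0.38, -0.67 and -0.29, and in each the change from GD17 to GD18 was called (-1.42, -1.11 and -0.87; limma adjusted p of the sex by day interaction = 0.00116, 0.000163 and 0.00188). XY pools of vehicle and of flutamide dams differed at GD17 by 0.52 in Zfp51, 0.51 in Zfp948 and 0.49 in Zfp995 (vehicle minus flutamide). The vehicle XY pools enter both comparisons.

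**Figure D4:**
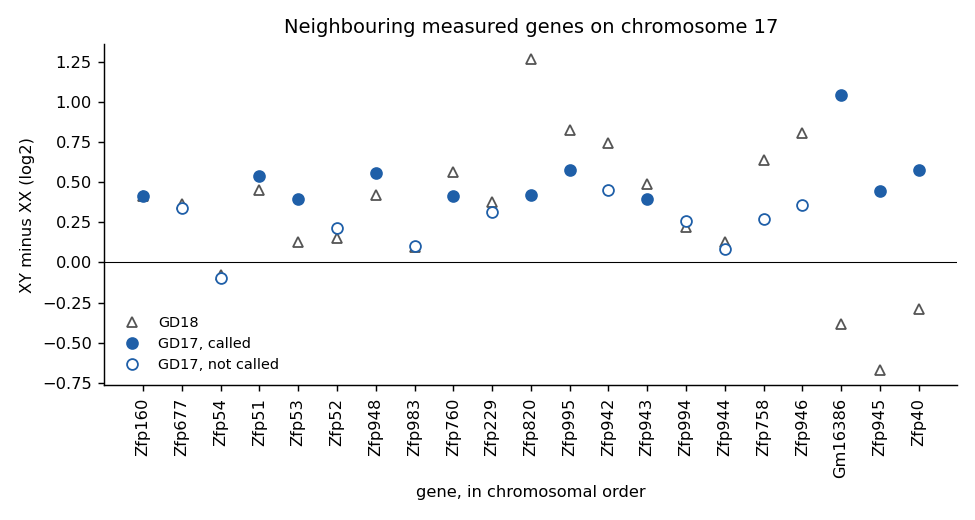
XY minus XX difference (log2) of the 21 measured genes from Zfp160 to Zfp40 in chromosomal order; filled circles are genes called at GD17, open circles genes not called at GD17, and triangles the difference at GD18. At GD17, 20 of the 21 are above 0, and at GD18 the last 3 are below 0.

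Developmental signalling genes gave single calls, where 0.922% of all genes described were called higher. Hhip, the membrane protein that binds and sequesters hedgehog ligands in the mesenchyme, was at 11.08, 11.26 and 10.79 in XY and 10.76, 10.45 and 10.47 in XX. The lowest XY pool was just above the highest XX pool, and the difference was 0.48 ± 0.11 (limma adjusted p = 0.0186). It was the 1 call among 13 hedgehog genes. Gli1, the direct target and effector of the pathway, had -0.13 (adjusted p = 0.615), and Gli3 had 0.10 (adjusted p = 0.513). Bmpr2, the type II receptor of bone morphogenetic proteins, was at 10.85, 10.87 and 10.70 in XY and 10.59, 10.38 and 10.46 in XX, a difference of 0.33 ± 0.08 (limma adjusted p = 0.0221), the 1 call among 20 genes of that pathway, and the mean of its 3 probe sets differed by 0.18 (adjusted p = 0.152). In the TGF-beta pathway limma called 0 of 20 genes. Of the 20, 4 had an unadjusted p under 0.05, beside 13.6% of all genes described. Tgfbr3, the coreceptor betaglycan, had 0.24 (limma adjusted p = 0.13) and Ltbp1, which tethers latent TGF-beta to the matrix, 0.11. Of 49 androgen receptor coregulators, Svil, the actin-binding protein supervillin, was called higher (0.22), beside 0.922% of all genes, and 34 were above 0, beside 34.7% of all genes. The ciliary gene Ccdc39 was called higher (0.49) as the 1 call of 16 ciliated cell genes. Of its 3 probe sets 1 was called, and their median was 0.04.

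Lipid genes moved in both directions. Chka, the choline kinase that opens the pathway to phosphatidylcholine, the main lipid of surfactant, was at 9.29, 9.31 and 9.27 in XY and 8.94, 8.98 and 9.01 in XX. These groups were far apart beside their own spread, and the difference was 0.32 ± 0.06 (limma adjusted p = 0.00864). Crls1, which makes the cardiolipin of mitochondria, was at 9.22, 9.15 and 9.11 against 9.32, 9.52 and 9.44. Its difference was -0.26 ± 0.06 (limma adjusted p = 0.0243). It was called in 1 of 2 probe sets, with a median of -0.14, and lost the call in 9 of 20 alternative settings. The other 26 of 28 genes of fatty acid and phospholipid synthesis were not called. Ptges2, a prostaglandin E synthase, differed by -0.32. Of 18 type II cell genes limma called 0, with 1 at an unadjusted p under 0.05 and a median of -0.10. Over all genes described 13.6% had such a p and the median was -0.05. The surfactant proteins Sftpb and Sftpc, which spread the lipid film, had 0.07 and 0.06, and the collectins Sftpa1 and Sftpd had -0.16 and -0.02. In Sftpd the pools ran from 6.49 to 7.60 in XY and from 6.45 to 7.78 in XX, so the groups overlapped over nearly all of their range. The lists that the study drew up on these samples are not independent evidence. In its list of genes that differed by sex at GD17, 5 of 21 measured autosomal genes were called in the probe set of highest mean. A further 8 were called in another probe set only, and 8 in none. Of the 5, Bmpr2 and Chka were higher, and Ptges2, Crls1 and Pnliprp2 lower. Pnliprp2 is on the exocrine pancreas list and is among the genes set aside, and its pool indicator coefficient was called. Its groups overlapped, with 5.86 and 5.76 in XX pools 2 and 3, 4.39 in XX pool 1 and 4.08 to 4.70 in XY. In the study's list of genes that responded to both sex and flutamide the corresponding counts were 0, 7 and 8 of 15. Of these 15, 3 were at an unadjusted p under 0.05 in the probe set of highest mean, beside 13.6% of all genes.

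The genes with the largest differences toward XX were led by genes of stratified epithelium. Lce3a, a late cornified envelope protein of the skin, was at 4.65, 4.51 and 4.67 in XY and 4.71, 6.33 and 6.26 in XX, a difference of -1.15 ± 0.28 (limma adjusted p = 0.0284). Tmem40 was at 5.74, 6.18 and 6.36 against 6.41, 7.35 and 7.38, a difference of -0.95 ± 0.21 (limma adjusted p = 0.0159). In both genes XX pool 1 was near the XY pools, and XX pools 2 and 3, the pools high in squamous genes, were far above. The largest difference among the genes called and not set aside, -1.85, was in 2300002M23Rik, whose groups overlapped, with 7.19 and 7.25 in XX pools 2 and 3, 4.66 in XX pool 1 and 4.39 to 4.76 in XY. Other genes known from squamous epithelium and picked after their values were seen had the same order, with Alox12b, the 12R-lipoxygenase of the skin barrier, at -0.70, the retinoic acid carrier Crabp2 at -0.73 and Anxa9 at -0.57. The part of squamous epithelium in these calls was not tested. With an indicator of the 3 pools high in pancreas genes in the model, 109 genes were called higher and 72 lower, and with these pools left out, which leaves 1 XX pool whose spread is taken from the other groups, 34 and 9.

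In 3 other genes lower in XY, XX pool 1 lay with the other XX pools. Bnipl was at 6.10, 6.40 and 6.03 in XY and 6.61, 6.66 and 6.67 in XX, a difference of -0.47 ± 0.09 (limma adjusted p = 0.00683). Prr15, a proline-rich protein, was at 5.84, 5.91 and 5.89 against 6.24, 6.49 and 6.46, a difference of -0.52 ± 0.10 (limma adjusted p = 0.00653), and was the 1 gene lower in XY with 2 probe sets called. Itga7, the laminin-binding integrin of muscle, was at 5.71, 6.26 and 5.89 against 6.58, 6.40 and 6.47. In these 3 genes all XX pools were above all XY pools, and XX pool 1 was nearer to the other XX pools than to any XY pool. Gadd45a, a stress sensor that slows the cell cycle, was at 6.91, 6.88 and 7.13 in XY and 7.19, 7.59 and 7.75 in XX, a difference of -0.54, and here XX pool 1 was next to XY pool 3. XX pool 1 was also the lowest XX pool, and nearer to the highest XY pool than to the other XX pools, in Abhd6, Acss1, Ncf4, Clybl and Mei4. Abhd6, a lipase that breaks down monoacylglycerol, differed by -0.52, and the mitochondrial acetate enzyme Acss1 by -0.58. Ncf4, a subunit of the phagocyte NADPH oxidase, differed by -0.46, and Clybl, a mitochondrial lyase, and Mei4, known from meiosis, by -0.46 and -0.47.

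Some genes known from red cells were lower in XY. Eif2ak1 encodes the kinase that holds globin translation in check when haem is short. It was at 8.74, 8.64 and 8.82 in XY and 8.92, 9.28 and 9.11 in XX, a difference of -0.37 ± 0.09. Of its 5 probe sets 1 was called and 2 were above 0, with a median of -0.14. Glrx5, which serves iron-sulphur cluster assembly, differed by -0.31, the ferrireductase gene Steap3 by -0.39, Fam210b by -0.29 and the erythrocyte membrane protein gene Dmtn by -0.47. In Dmtn the groups overlapped, and Steap3, Fam210b and Dmtn were each called in 1 of 3 probe sets. Of 20 alternative settings, the call was lost in 11 for Steap3, 10 for Glrx5, 8 each for Eif2ak1 and Dmtn and 7 for Fam210b. These 5 genes were picked after their values were seen. The coefficient of the pool indicator was called in none of them. It was also not called in Lce3a and Tmem40, which were far above in XX pools 2 and 3, so it does not set the 5 genes apart. The 5 genes are not on the blood list, whose mean was -0.67, -0.49 and 0.17 in XY pools 1 to 3 and -0.18, 0.61 and 0.56 in XX. Of 34 measured genes of that list 1, Hbb-bh1, was called lower and 1 was above 0, with a median of -0.59. The part of blood in these calls was not tested. In the list of macrophage and leukocyte genes, limma called 0 of 19, with 7 at an unadjusted p under 0.05, and all 19 were below 0, with a median of -0.22. Over all genes 13.6% had such a p and 34.7% were above 0. With the 3 pools high in pancreas genes left out, 4 of the 19 were above 0. In 10 of them the XX pools were all above the XY pools, against 15.2% of all genes described. The adaptor Tyrobp had -0.35 (adjusted p = 0.0736) and the complement gene C1qc -0.25 (adjusted p = 0.0721).

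Mitochondrial and metabolic lists lay below 0 without calls by limma, with 16 of 36 mitochondrial ribosome genes, 8 of 61 oxidative phosphorylation genes and 5 of 17 cholesterol synthesis genes at an unadjusted p under 0.05, against 13.6% of all genes described, of which 34.7% were above 0. All 36 genes of the mitochondrial ribosome were below 0, with a median of -0.15, and the XX pools were all above the XY pools in 19, against 15.2% of all genes described. Their smallest adjusted p was 0.0578, in Mrps16 (-0.21). Of 61 oxidative phosphorylation genes 4 were above 0, with a median of -0.09, and of 17 cholesterol synthesis genes 0 were above 0, with a median of -0.18. With the 3 pools high in pancreas genes left out, 2, 7 and 6 genes of these lists were above 0, with medians of -0.11, -0.08 and -0.03. Genes of the same kind outside these lists were called, and were picked after their values were seen. The ribosomal subunits Mrps6 and Mrpl45 differed by -0.33 and -0.26. Cox17, the copper chaperone of cytochrome c oxidase, was at 10.36, 10.48 and 10.47 in XY and 10.68, 10.73 and 10.75 in XX, a difference of -0.29 ± 0.07 (limma adjusted p = 0.0352). Of 34 cytoplasmic ribosomal protein genes Rpl14 was called (-0.32) and 7 were above 0, with a median of -0.02. At GD18 the medians of the mitochondrial ribosome, oxidative phosphorylation and cholesterol lists were 0.20, 0.14 and 0.30.

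**Figure D5:**
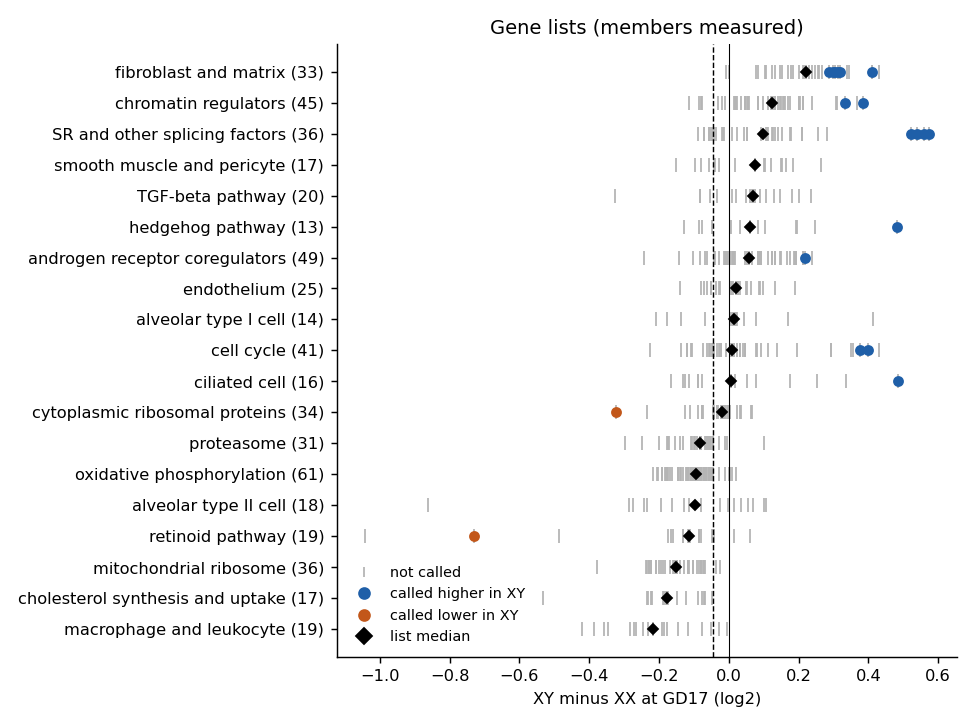
XY minus XX difference at GD17 (log2) of the members of 19 gene lists; grey ticks are genes not called, filled circles genes called, diamonds the median of a list, and the dashed line the median of all autosomal genes at -0.05. Fibroblast and matrix genes have a median of 0.22 and 6 calls, and all members of the mitochondrial ribosome, cholesterol and macrophage lists are below 0.

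On GD18 the sex difference was measured on other pools. There, 251 genes described were called higher in XY (1.45%) and 41 lower (0.236%), but 940 and 194 without XY pool 3 of GD18, which was high in liver genes. Of the 160 genes called higher in XY at GD17, 20 were called higher at GD18 (12.5% of the GD17 list and 7.97% of the GD18 list) and 21 were called lower (13.1% of the GD17 list and 51.2% of the GD18 list). Without that pool the counts were 20 (12.5% and 2.13%) and 31 (19.4% and 16%). Their median at GD18 was -0.10, against 0.02 over all genes. Of the 121 called lower at GD17, 10 were called higher at GD18 and 0 lower, 14 and 0 without that pool, and their median was 0.11. The difference between the days was tested as the sex by day interaction, called in 847 genes (4.88%), 689 of them with the GD18 difference above that of GD17 (3.97%) and 158 below (0.91%). It was called in 100 of the 160 genes higher at GD17, 91 of which had the opposite sign at GD18, and in 85 of the 121 genes lower at GD17, all with the opposite sign. Since both lists were chosen on the GD17 pools that also enter the interaction, these counts describe the lists and were not set against chance. Leaving out XY pool 3 of GD18, 1591 genes had the interaction called, with 102 of the 160 and 86 of the 121 among them.

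Single genes showed both patterns. Usp8, Hmbox1, Scmh1, Rbm6, Rian and 2310067E19Rik were higher in XY at GD17 and lower in XY at GD18, with differences of -0.54, -0.54, -0.45, -0.35, -0.45 and -0.54, and each of these GD18 differences was called, also without XY pool 3 of GD18. In the matrix list Col6a1 was called lower at GD18 (-0.29), and Fbln5 had -0.38 (adjusted p = 0.09). Glrx5 and Crls1 were lower in XY at GD17 and called higher at GD18, by 0.41 and 0.26, and Crls1 had 0.21 (adjusted p = 0.0633) without XY pool 3 of GD18. Smc4, Knl1 and Nipbl were higher in XY on both days, at 0.66, 0.44 and 0.37 on GD18, and Nipbl had 0.29 (adjusted p = 0.0723) without that pool.

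Flutamide-exposed XY pools were also compared with the vehicle XY pools at GD17, so that the vehicle XY pools are shared with the sex comparison and no overlap of calls is given. The vehicle minus flutamide difference had a median of 0.28 over the 160 genes higher in XY, -0.07 over the 121 lower and -0.04 over all genes. Rian had 0.94 beside its sex difference of 0.63, Knl1 0.85 beside 0.40, Col1a1 0.52 beside 0.32 and Ogn 0.52 beside 0.54. Hmbox1 had 0.20 beside 0.81, Nbeal1 0.02 beside 0.50 and Hhip -0.31 beside 0.48. Among genes lower in XY, Itga7 had -0.48 beside -0.53 and Ncf4 -0.39 beside -0.46, while Lce3a had -0.09 beside -1.15.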

How the data were processed

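Total RNA was hybridised to Affymetrix MOE430 2.0 arrays. The authors read the images in GCOS and used RMA for background, normalization and summary, and the intensity they deposited per probe set is linear. The submitters' processing notes name limma. Here the log2 was taken, 64 AFFX controls were left out and 45037 probe sets were tested with limma 3.58.1 in R 4.3.3, with a mean for each of 6 groups over 18 arrays (12 residual degrees of freedom), eBayes and Benjamini-Hochberg adjustment over all probe sets tested. Each sample is a pool of separate fetuses, and the 3 pools per group limit the precision. The library labelled 18 flut 3 had Xist, the RNA of the inactive X, at 11.95, near the XX pools, and enters only the shared spread.

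The platform annotation (2016) gave 34945 probe sets 1 symbol, 932 several and 9160 none. RefSeq (GRCm38.p6) gave chromosomes, and 34943 probe sets matched. Set aside were 132 genes on lists of exocrine pancreas, islet, stomach, squamous epithelium and blood, and 40 more whose coefficient for an indicator of XX pools 2 and 3 and XY pool 3 was called with a size of at least 1. Named genes are the 12 largest differences in each direction called without overlap, up to 4 genes of smallest p per list, the genes of both lists of the study, the 10 genes with most probe sets called 1 way, and genes said in the text to have been picked after their values were seen. The members, the 54 gene lists and the tests were chosen with earlier results of these data known. The fit was tested on simulated data. Alternatives covered normalization, signal filter, weights, variance prior, arrays in the fit, adjustment, probe set choice, a replicate block, the pool indicator and single pools left out. The gene list counts with the pool indicator, or without its 3 pools, and the fit without XY pool 3 of GD18 were added after seeing the data.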

Additional observations from a re-analysis of the deposited data

Results flagged for a closer look

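The sex difference changed from GD17 to GD18 by the test of the difference itself (limma, adjusted p of the sex by day interaction under 0.05) in 847 autosomal genes. The values that follow are the GD18 difference minus the GD17 difference, in log2 units, for the genes named in the report. Most of these genes were named for their difference at GD17, and the same GD17 pools enter the interaction. The values therefore describe the named genes and were not set against chance.

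Among regulators of RNA and chromatin the value was -1.35 in Hmbox1, -1.10 in Scmh1, -0.85 in Taf15, -0.89 in Rbm6, -0.83 in Rbm39, -0.82 in Luc7l2, -0.55 in Rbm25, -0.50 in Chd9, -0.34 in Tut4 and -0.64 in Zbtb20. Among noncoding and uncharacterised transcripts it was -1.42 in Gm16386, -1.32 in B230216N24Rik, -1.29 in 2310067E19Rik, -0.99 in A330076H08Rik, -0.80 in 5031426D15Rik, -1.08 in Rian and -0.56 in Kcnq1ot1. All of these were higher in XY at GD17.

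In matrix genes the value was -0.79 in Fbln5, -0.58 in Col6a1, -0.48 in Col5a1, -0.47 in Col1a1, -0.46 in Lamc1, -0.43 in Col6a3, -0.42 in Ogn and -0.32 in Postn. In other genes it was -1.25 in Usp8, -0.66 in Hhip, -0.43 in Tgfbr3, -0.80 in Lpp, -0.69 in Nbeal1, -0.60 in Taok1, -0.65 in Ttc14, -0.35 in Svil and -0.56 in Chka. Gli1, not called at GD17, had 0.59. Among zinc finger genes it was -1.11 in Zfp945, -0.87 in Zfp40, 0.84 in Zfp820 and 0.40 in Zfp428.

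In genes lower in XY at GD17 the value was 1.04 in Gadd45a, 0.94 in Crabp2, 0.71 in Glrx5, 0.65 in Ncf4, 0.63 in Rpl14, 0.59 in Hbb-bh1, 0.56 in Mrps6, 0.54 in Ptges2, 0.53 in Bnipl and 0.52 in Crls1. It was 0.51 in Steap3, 0.49 in Mrpl45, 0.45 in Eif2ak1, 0.43 in Cox17 and 0.41 in Fam210b. Without XY pool 3 of GD18, which was high in liver genes, Steap3 had 0.45 (adjusted p = 0.0645).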

How the results depend on the processing

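The counts of 160 genes called higher, 121 called lower and 847 with the sex by day interaction depended on the settings, and the cause was not tested. With arrays centred on their medians 223 were lower, and when dimmer probe sets, below the median signal, were dropped, 224. With array weights the counts were 295, 524 and 2045. With only the 6 vehicle arrays of GD17, 120 were higher and 24 were lower. Without pool 3 of 18 m and of 18 flut 272 were lower and 1467 had the interaction, and without pool 3 of 18 m alone, an alternative chosen after seeing the data, the counts were 243, 313 and 1591. With p-values adjusted over the autosomal genes alone they were 96, 17 and 540. With the mean of all probe sets of a gene 30 were lower, with the pool indicator 72, and with the 3 indicated pools left out the counts were 34, 9 and 116. With 1 GD17 pool left out at a time they ran from 89 to 224, 22 to 309 and 381 to 898, lowest without XX pool 2 or 3. The replicate numbers did not pair the pools (correlations of same-numbered pools 0.36, -0.32 and 0.37), and with a replicate block the counts were 153, 104 and 697.

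Of 87 genes that were called and followed through these settings (68 of them above the signal filter) 0 changed sign, but many calls were lost: 75 without the 3 indicated pools, 51 each without XX pool 2, with the 6 arrays alone, with the adjustment over autosomal genes and with the mean of all probe sets, 50 without XX pool 3, 49 each without XY pool 1 or 2, 34 with the indicator, 20 without XY pool 3 and 17 without XX pool 1. Among uncalled surfactant genes, Sftpa1 had 0.0755 and Sftpd 0.26 with array weights, and Sftpb had -0.052 with the pool indicator. With 1 pool left out Sftpa1 ran from -0.49 to 0.091, Sftpb from -0.14 to 0.21, Sftpc from -0.0472 to 0.11 and Sftpd from -0.33 to 0.34.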
